A study of Mus musculus with 4 samples.

Results

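Basal keratinocytes form the lowest layer of the epidermis. They hold to the basement membrane through hemidesmosomes, whose parts include the collagen Col17a1 and the integrin subunit Itgb4, they carry the keratins of the proliferating layer, and their progeny leave the membrane to become spinous and cornified cells that make Krt1 and loricrin (Lor). The cells described here lay on 2 Xenium slides of unwounded mouse dorsal skin and were chosen by 3 genes of a custom panel. A cell needed at least 10 transcripts in all, at least 5 transcripts of Krt15, Col17a1 and Itgb4 in sum, and none of Shh, Dsg4, Krt75, Krtap17-1, Lhx2, Lgr5 and Cd34, which mark the hair follicle. The rule found 8995 cells among 240549 cells with at least 10 transcripts in 7 skin sections, out of 515791 cells in the series, and they are called gated basal keratinocytes below.

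The mice were Tet-On TRE-Pitx1/Krt5-rtTA animals, in which the Krt5 promoter drives the doxycycline-dependent activator in basal epithelial cells and the activator drives Pitx1, a transcription factor of the oral epithelium. Littermates of this cross received normal chow (Control, "Vehicle" in the labels) or doxycycline chow for 6 weeks from the telogen phase on (PITX1+, "Doxycycline"). The mice were adults, with no age in weeks given in the sources used here. The question of the comparison is what forced Pitx1 expression does to skin keratinocytes. The female slide held Control sections 1 and 2 and PITX1+ sections 1 and 2, and the male slide held Control section 3 and PITX1+ sections 3 and 4, all 5 µm thick. The labels name both conditions for each slide and not the condition of a section. The first section of the slide with 3 sections and the first pair of the slide with 4, by position, were taken as Control. As a check, cells with at least 3 detected genes were counted per section and compared with the totals that the study lists. Each count lay within 0.493% of a total for the condition taken. Totals listed for other conditions differed from it by 9.08% or more. Before that filter the counts were larger, at 18724 against 16926 cells in Control section 3, and were not used for the match. The study counts its PITX1+ Xenium samples as mice and its Control samples as skin, and the labels tie no section to an animal, so p-values measure the spread between sections, part of which may be technical. Slide and sex cannot be told apart.

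Pitx1 itself was above the Control range on 1 slide only. In the gated cells its level was 72.2, 48.7 and 46.3 CPM, that is, transcripts scaled to a common total of panel transcripts per section, in Control sections 1 to 3 and 15.1, 55.05, 1437 and 428 CPM in PITX1+ sections 1 to 4. The male PITX1+ sections were far above every Control section, and the female PITX1+ sections lay within or below the Control range. Over all cells of a section the level was 76.3, 53.8 and 11.2 CPM in Control and 53.7, 63.5, 727 and 437 CPM in PITX1+ sections, with the same split. The counts behind the gated cells were 11, 6 and 1 transcripts in Control and 2, 13, 106 and 69 in PITX1+ sections, and the low levels rest on few transcripts. Of the 106 and 69, 105 and 57 lay in gated cells within 50 µm of a hair follicle cell. Such cells were 84.3 and 45.7% of the gated cells there. Hair follicle cells themselves held 85.6, 231 and 0 CPM in Control and 79.1, 113, 878 and 943 CPM in PITX1+ sections. Suprabasal cells held 10.9, 0 and 20.3 CPM and 15.3, 17.0, 48.7 and 88.1 CPM. Both classes are defined below. Transcripts of Pitx1 lay in 0.167, 0.729, 13.3 and 5.02% of the gated cells of PITX1+ sections 1 to 4, against 0.195, 0.259, 1.73 and 1.03% of the cells with fibroblast markers, which lie outside the reach of the Krt5 promoter and had median depths of 37, 52, 59 and 77 transcripts. Over both slides the fit gave a log2 fold change of 0.69 ± 1.06 (SE), adjusted p = 0.763 by edgeR. The male slide alone gave 4.00 (log2), adjusted p = 0.449, and the difference of the change between the slides was 4.64 ± 1.81 (SE), adjusted p = 0.265 by edgeR, so neither passed. On the female slide the gene was too low to be tested. The sections are named PITX1+ below for the totals they match, and a direction drawn from the female slide carries no Pitx1 level above the Control range. Which stretch of Pitx1 the probes read is not given in the sources used here. The plot of the gate genes and Pitx1 shows both.

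**Figure D1:**
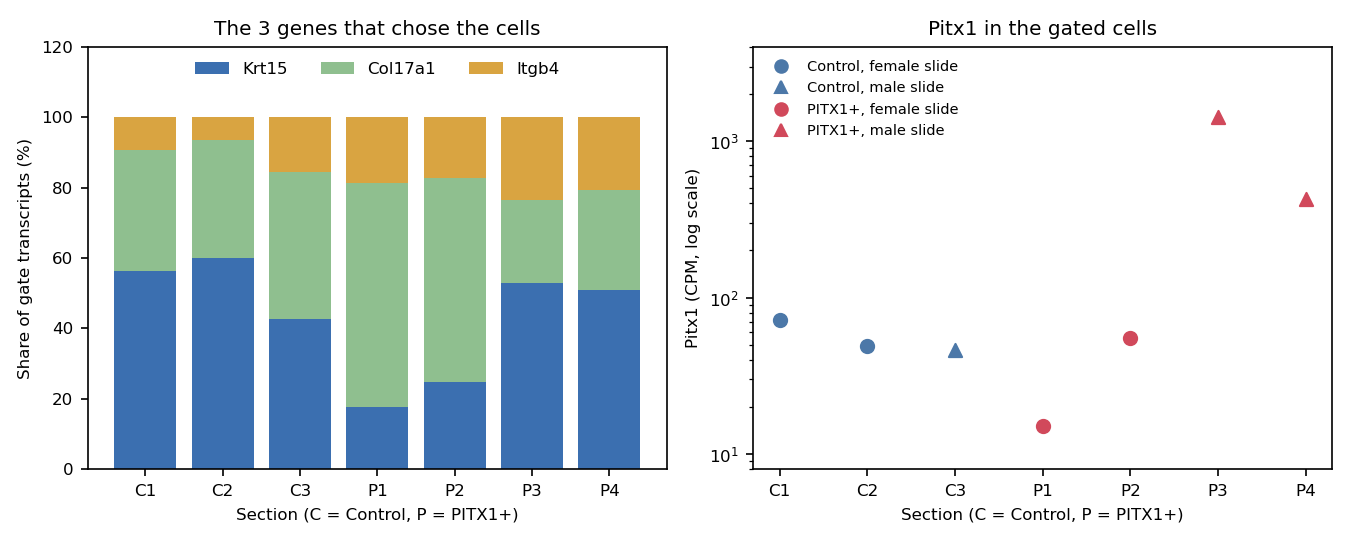
Left, share of the gate transcripts (%) that came from Krt15, Col17a1 and Itgb4 in the gated cells of each section. Right, Pitx1 in the same cells (CPM, log scale), 1 point per section, circles for the female and triangles for the male slide. Krt15 made 17.6% and 24.8% of the gate transcripts in the female PITX1+ sections, and Pitx1 stood above the Control sections in the male PITX1+ sections. In the latter, most Pitx1 transcripts lay in gated cells within 50 µm of a hair follicle cell.

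The gated cells carried markers of the basal layer, and many also held suprabasal transcripts. Krt5, the keratin of basal cells, was seen in 89.8, 89.3 and 95% of gated cells in Control sections and in 95.9, 93.5, 97.8 and 94.3% in PITX1+ sections, against 19.9% to 51.3% of the other cells. Trp63, the transcription factor of stratified epithelia, was seen in 67.9, 65.5 and 70% and 84.1, 85.8, 85.6 and 84.3%, against 14.8% to 39.9% of the other cells. These shares of cells with a transcript were not adjusted for depth. Gated cells had median depths of 58 to 67 transcripts in Control and 95.5 to 118 in PITX1+ sections. As a level, Trp63 did not pass between conditions (log2 -0.06, adjusted p = 0.917 by edgeR). The 3 basal markers outside the gate were higher in the gated cells than in the other cells of all 7 sections. The 5 suprabasal markers summed to 166927, 198904 and 118749 CPM in the gated cells of Control sections, against 82048, 82098 and 52020.1 CPM in the other cells. In PITX1+ sections they summed to 52245, 23123, 24733 and 91795 CPM, against 77922, 51557, 18703 and 24422 CPM. Of the gated cells, 63.5, 67.3 and 52.8% and 55.6, 32.4, 15.1 and 49.3% held at least 2 transcripts of Krt1, Krt77 and Lor. The gated cells were thus above the other cells in suprabasal markers in all Control sections and in the male PITX1+ sections. They were below them in the female PITX1+ sections. The 8 fibroblast markers summed to 17347 to 21897 CPM in the gated cells of Control sections and 17794 to 24001 CPM in those of PITX1+ sections. The 6 follicle markers were at 0 by the rule.

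The 3 gate genes were not used alike in all sections. These values chose the cells, so they are a description and were not tested. Krt15, a keratin of basal and follicle stem cells, gave 56.5, 59.95 and 42.7% of the gate transcripts in Control sections and 17.6, 24.8, 52.9 and 50.9% in PITX1+ sections. Col17a1 gave 34.3, 33.7 and 41.9% and 63.6, 58.00, 23.5 and 28.5%. Itgb4 gave 9.25, 6.39 and 15.4% and 18.7, 17.2, 23.6 and 20.6%. The female PITX1+ sections thus had mostly Col17a1, and the others had Krt15 as the first or nearly the first gate gene. The Krt15 level was 64347, 77819 and 43993 CPM in Control and 11938, 15040.2, 34577 and 35178 CPM in PITX1+ sections.

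Gated cells made up 11.5, 14.5 and 2.52% of the cells of Control sections 1 to 3 (1995, 1712 and 320 cells) and 2.09, 2.37, 1.81 and 4.63% of those of PITX1+ sections 1 to 4 (1195, 1783, 694 and 1296 cells). The 95% Wilson intervals, which cover counting error only, were 2.26% to 2.81% in Control section 3 and 4.39% to 4.88% in PITX1+ section 4, so the lowest Control section lay below the highest PITX1+ section. Depth differed between conditions, with medians of 67, 66 and 58 transcripts per gated cell in Control and 105, 118, 95.5 and 110 in PITX1+ sections. After each cell with at least 50 transcripts was thinned to 50, the shares were 18.2, 24.4 and 3.42% and 1.68, 1.08, 1.09 and 2.49%, and all Control sections were then above all PITX1+ sections. The cells deep enough were 4700, 3172 and 2570 of 17335, 11778 and 12684 in Control. In PITX1+ sections they were 21884, 42329, 22103 and 20698 of 57231, 75268, 38248 and 28005. A smaller part of the Control cells was thus kept, and the thinned shares do not compare like sets of cells. The shares use the gate and were not tested. Just outside the threshold, 3311 cells had 4 gate transcripts, and just inside it 2306 cells had 5. Krt5 stood at 60202 CPM in the former and 66442 CPM in the latter, and a further 7129 cells passed the threshold and held a follicle gene or Cd34. The 2 skin slides shared 7 cell names.

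In most sections the gated cells lined the surface epithelium, as the map of their positions shows. Of the gated cells, 71.2, 71.03 and 58.4% lay within 30 µm of a suprabasal keratinocyte, a cell with at least 5 transcripts of Krt1, Krt77 and Lor, in Control sections, and 65.3, 57.5, 18.01 and 55.7% in PITX1+ sections (exact permutation test over 3 and 4 sections, two-sided, p = 0.114). Among the other cells the same share was 8.90% to 17.7%. PITX1+ section 3 stood apart, with a median distance to the nearest suprabasal cell of 207 µm against 11.9 to 20.03 µm elsewhere. Within 50 µm of a hair follicle cell, a cell with at least 2 transcripts of Shh, Dsg4, Krt75, Krtap17-1, Lhx2 and Lgr5, lay 26.7, 20.04 and 30.9% of the gated cells in Control and 28.9, 40.8, 84.3 and 45.7% in PITX1+ sections (exact permutation test over 3 and 4 sections, two-sided, p = 0.114). Among the other cells the same share was 22.7, 22.6 and 22.9% and 42.3, 51.99, 73.4 and 55.4%, so the gated cells lay below it in Control section 2 and PITX1+ sections 1, 2 and 4. Follicle cells made 1.41% to 3.36% of the cells of Control and 3.21% to 17.6% of PITX1+ sections, and their part in that share was not tested. Both permutation tests pooled the 2 slides without a slide term. Within each slide the PITX1+ sections lay below the Control sections in the suprabasal share and above them in the follicle share. The label of interfollicular cells is not borne out by position in PITX1+ section 3, where most gated cells lay within that distance of follicle cells, as did most other cells of the section, and few lay near suprabasal cells.

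**Figure D2:**
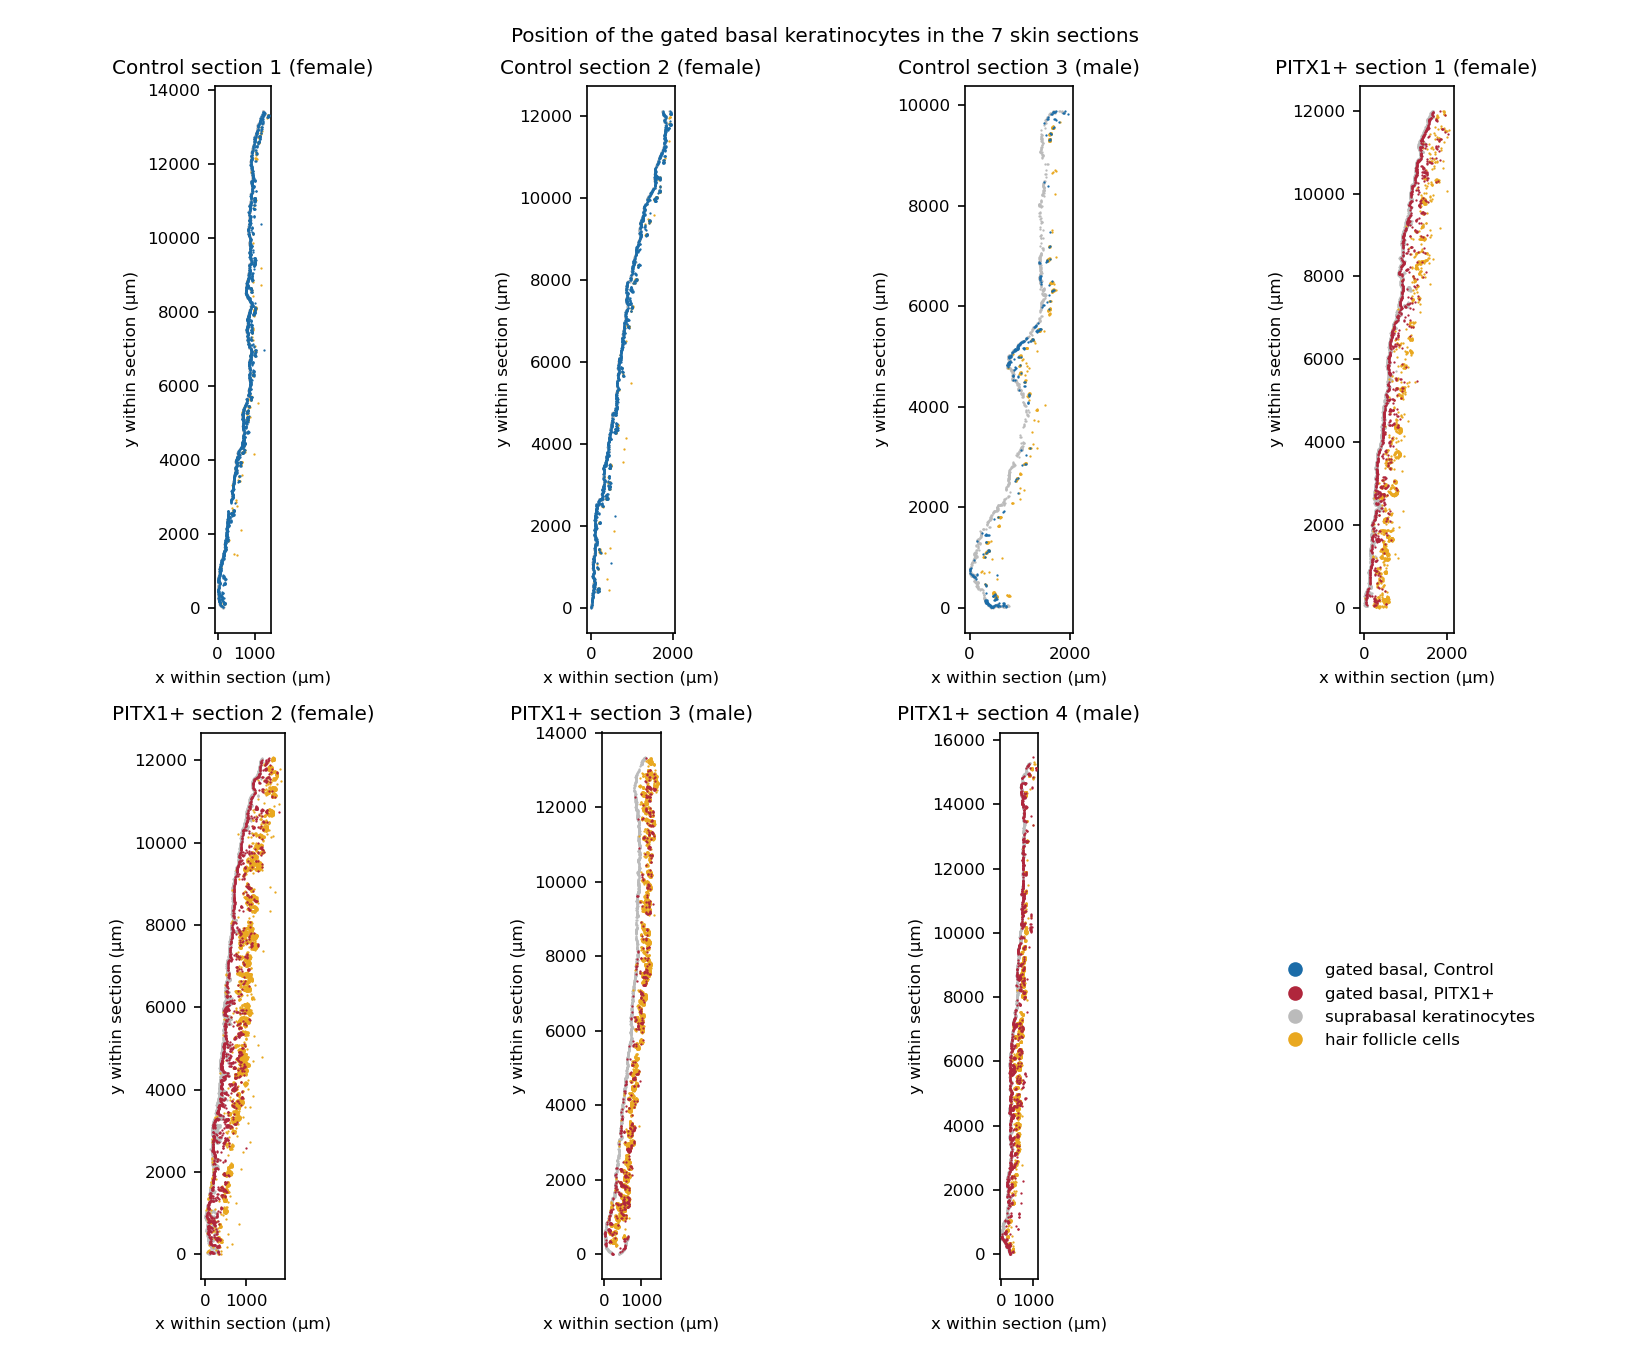
Positions (x and y within each section, µm, axes at equal scale) of gated basal keratinocytes (blue in Control, red in PITX1+ sections), suprabasal keratinocytes (grey) and hair follicle cells (yellow) in the 7 skin sections. The gated cells follow the surface in most sections, and in PITX1+ section 3 they lie among the follicle cells, 84.3% of them within 50 µm of one.

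The surroundings of the gated cells were read within a fixed distance. Within 25 µm of a gated cell lay on average 13.1, 11.6 and 14.5 cells in Control and 17.7, 19.7, 24.9 and 15.5 in PITX1+ sections. Other gated cells were 30.4, 35.1 and 18.7% of these neighbours in Control and 11.9, 13.3, 7.49 and 15.8% in PITX1+ sections, a share that uses the gate and was not tested. Cells with at least 5 fibroblast marker transcripts were 5.68, 8.48 and 5.49% and 10.3, 15.1, 12.8 and 11.6%. Cells with at least 3 vascular marker transcripts were 0.123, 0.177 and 0.130% and 2.29, 1.86, 2.08 and 2.29%, and cells with at least 5 immune marker transcripts 2.21, 1.37 and 1.34% and 2.59, 3.07, 2.36 and 2.90%. The number of neighbours and the 3 marker shares did not overlap between conditions, and each had p = 0.0571 by the exact permutation test, the smallest that 3 against 4 sections allow, and adjusted p = 0.157 over 11 measures of place, size and neighbours, so none passed the threshold. The separation depended on the setting for 3 of the 4. Within 50 µm the fibroblast shares (9.17% to 15.3% in Control and 12.04% to 17.8% in PITX1+ sections) and the immune shares (2.27% to 4.22% in Control and 3.53% to 5.10% in PITX1+ sections) overlapped, and with a gate of at least 8 transcripts the immune shares (1.43% to 2.44% in Control and 1.91% to 3.55% in PITX1+ sections) and the numbers of neighbours overlapped. The vascular shares did not overlap within 15 or 50 µm, with that gate or with at least 20 transcripts per cell. The part of depth and of the make-up of the sections in these differences was not tested. Over all cells of a section the median depth was 26 to 32 transcripts in Control and 37 to 87 in PITX1+ sections, vascular marker cells were 1.31% to 3.22% and 4.23% to 7.54%, immune marker cells 4.36% to 10.7% and 8.71% to 14.98%, and fibroblast marker cells 14.4% to 26.7% and 15.2% to 24.7%. The median nucleus area was 23.9, 23.4 and 26.7 µm2 in Control and 39.2, 43.9, 26.96 and 24.00 µm2 in PITX1+ sections (exact permutation test over 3 and 4 sections, two-sided, p = 0.114), with only the female PITX1+ sections well above the rest. The median cell area was 112, 125 and 91.8 µm2 and 98.5, 99.1, 59.99 and 109 µm2 (exact permutation test over 3 and 4 sections, two-sided, p = 0.343).

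Between conditions, 4 genes rose and 3 fell in the gated cells over both slides. Transcripts were summed per section and compared by edgeR with the slide as covariate, leaving out the 10 genes of the rule. Of 312 genes tested, 7 passed an adjusted p of 0.05, which is 2.24%, and 87 had an unadjusted p under 0.05. Fold changes are given as PITX1+ over Control on the log2 scale.

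Tnc, tenascin-C, a matrix glycoprotein laid down around wounds and growing follicles, stood at 3862, 3004 and 370.1 CPM in Control sections 1 to 3 and at 14068, 18745, 2549 and 1271 CPM in PITX1+ sections 1 to 4 (log2 fold change 2.26 ± 0.36 (SE), adjusted p = 0.0431). On each slide both PITX1+ sections were above its Control sections, although the male PITX1+ sections lay below the female Control sections. The male order rests on 1 Control section with 320 gated cells and 21617 transcripts, so its low value stands on few transcripts. Scd2, a stearoyl-CoA desaturase that makes unsaturated fatty acids, stood at 2121, 2330.1 and 1573 CPM in Control sections 1 to 3 and at 5323, 6233, 13261 and 11755 CPM in PITX1+ sections 1 to 4 (log2 fold change 1.90 ± 0.37 (SE), adjusted p = 0.0449). Lbh, a transcription cofactor of epithelial progenitors, stood at 1964, 1957 and 1249 CPM in Control sections 1 to 3 and at 5331, 6347, 8556 and 4011 CPM in PITX1+ sections 1 to 4 (log2 fold change 1.80 ± 0.35 (SE), adjusted p = 0.0449). Scd2 and Lbh were both higher in all 4 PITX1+ sections than in all 3 Control sections. How many of all genes were separated in this way, upward or downward, is not given here.

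The 3 genes that fell were lower in every PITX1+ section than in every Control section. Gated cells within 50 µm of a follicle cell also held less Il34 and Tnxb than those farther away (log2 -0.92 and -1.61). Both passed in that comparison (adjusted p = 0.0161 and 0.00739 by edgeR), and Wfdc3 was higher near follicle cells (log2 2.74). The part of place in the 3 falls was not tested. Wfdc3, which encodes a whey acidic protein domain, stood at 1261, 1079.8 and 879 CPM in Control sections 1 to 3 and at 106, 191, 149 and 93.00 CPM in PITX1+ sections 1 to 4 (log2 fold change -2.97 ± 0.41 (SE), adjusted p = 0.0349). Il34, the keratinocyte ligand of Csf1r on which epidermal Langerhans cells depend, stood at 1609, 1518 and 2961 CPM in Control sections 1 to 3 and at 332, 144, 651 and 1419.8 CPM in PITX1+ sections 1 to 4 (log2 fold change -2.33 ± 0.45 (SE), adjusted p = 0.0449). Cd207, the Langerhans cell marker, was read in the gated cells at 1688, 1599 and 925 CPM in Control and 385, 106, 136 and 818 CPM in PITX1+ sections and did not pass (adjusted p = 0.137 by edgeR). Gated cells with a Cd207 cell within 25 µm were 16.7, 15.1 and 5.63% in Control and 8.87, 8.75, 1.73 and 13.2% in PITX1+ sections. These shares overlapped (exact permutation test over 3 and 4 sections, two-sided, p = 0.343). Tnxb, tenascin-X, a matrix protein of the dermis that binds collagen, stood at 5839, 4392 and 5736 CPM in Control sections 1 to 3 and at 1321, 487, 1044 and 2461 CPM in PITX1+ sections 1 to 4 (log2 fold change -2.28 ± 0.44 (SE), adjusted p = 0.0449). The plot of these 6 genes shows each section. None of the 7 passed on the male slide alone, where 1 Control section stood against 2, and all 7 passed on the female slide alone.

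**Figure D3:**
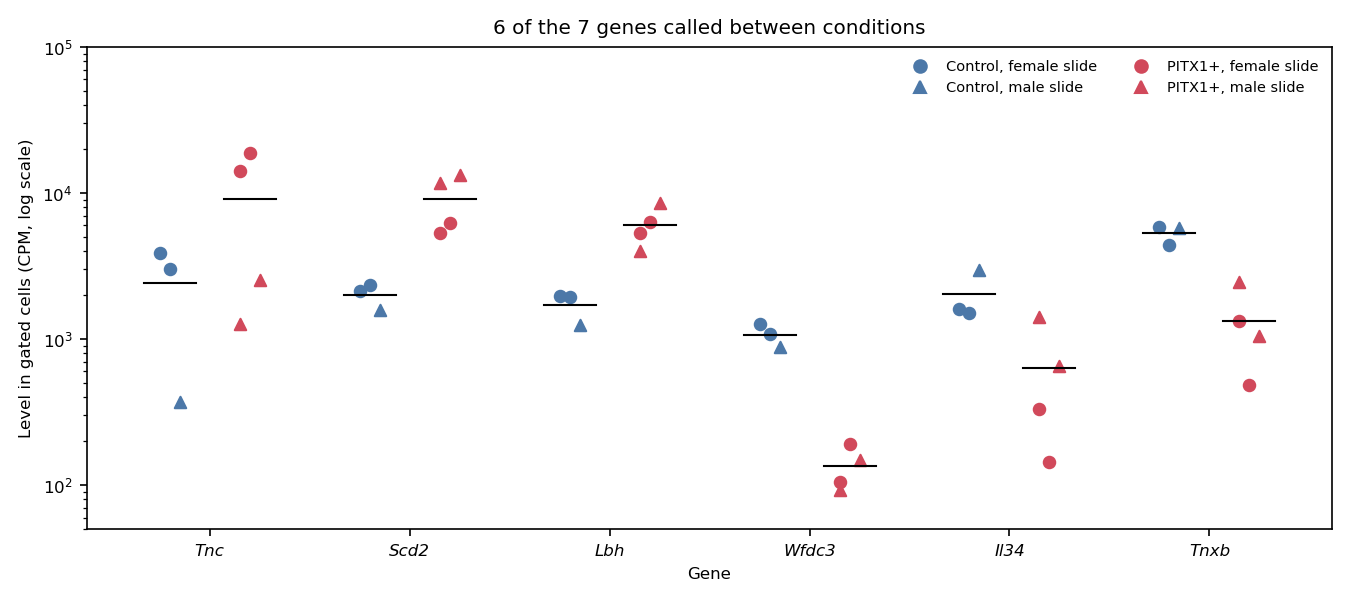
Level of 6 of the 7 genes called between conditions in the gated cells (CPM, log scale), 1 point per section, circles for the female and triangles for the male slide, lines for the mean of a condition. Tnc, Scd2 and Lbh are higher and Wfdc3, Il34 and Tnxb lower in PITX1+ sections on both slides.

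The 7 calls depended on single sections and on the gate. No gene was called when Control section 1, Control section 2, PITX1+ section 1 or PITX1+ section 2 was left out, 54 were called without PITX1+ section 4 and 12 without Control section 3. With a gate of at least 8 transcripts no gene was called, and with gated cells more than 50 µm from follicle cells no gene was called. These 6 counts of 0 stood beside 41 to 69 genes with an unadjusted p under 0.05 by edgeR, and DESeq2, run with all sections and the rule as given, called 66 genes. Lbh was the gene that turned over with place, at -0.07 (log2) among gated cells within 30 µm of a suprabasal cell. The size of the others moved with the setting as well. Over the settings the log2 fold change ran from -4.47 to -0.81 for Wfdc3 and from -3.04 to -0.90 for Il34. It ran from 1.15 to 2.97 for Scd2, 1.52 to 2.79 for Tnc and -2.735 to -1.46 for Tnxb. Suprabasal transcripts in the gated cells moved with the condition, since the 5 suprabasal markers summed to 118749 to 198904 CPM in Control and 23123 to 91795 CPM in PITX1+ sections. Among gated cells with fewer than 2 transcripts of Krt1, Krt77 and Lor, 16 genes were higher and 15 lower, 6 of them among the 7. The 9 immune markers summed to 8598 to 9708 and 2536 to 6479 CPM, with Cxcr2 at 0 in some sections, and their part was not tested.

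On the female slide, where Pitx1 was not above the Control range, 59 genes rose and 42 fell of 310 tested, or 32.6%, between 2 and 2 sections. On the male slide no gene passed (edgeR, 27 genes with an unadjusted p under 0.05), in a comparison of 2 sections with 1 whose spread came from the 2 PITX1+ sections alone. The median log2 fold change of all genes was -0.16 on the female slide and 0.23 on the male slide. The lists that follow were described by their counts of called genes on the female slide, chosen after the values had been seen, with the count over both slides beside them. Each female count is to be read beside the 32.6% of all genes called there. The oral, Wnt, BMP and TGF-beta, ephrin, EGF, cytokine, immediate early and sebaceous lists lay near or below that share. Their counts are thus no result about their members. The plot of the lists gives their medians by slide.

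Genes of stressed and activated keratinocytes had the highest median of the lists on the female slide. Of this list, 11 of 14 were higher and 1 lower on the female slide (median 3.26), 0 and 0 of 14 were so over both slides (median 2.26), and the median was 0.45 on the male slide. Krt6a, a keratin of wounded epidermis, stood at 795, 877 and 18596 CPM in Control and 4055, 10603, 13465 and 13925 CPM in PITX1+ sections (female slide, log2 fold change 3.36 ± 0.53 (SE), adjusted p = 0.00784). The male Control section held more Krt6a than any PITX1+ section. Krt17, a keratin of follicles and injured skin, stood at 54167, 52050 and 52366 CPM in Control and 120499, 128989, 72748 and 50597 CPM in PITX1+ sections (female slide, log2 fold change 1.44 ± 0.21 (SE), adjusted p = 0.0066). Sprr2a3, a cornified envelope precursor, stood at 1084, 1193 and 1665 CPM in Control and 25356, 33527, 1586 and 4191 CPM in PITX1+ sections (female slide, log2 fold change 4.90 ± 0.32 (SE), adjusted p = 0.000738). Both stood out in the female PITX1+ sections and were not above the Control range in every male one.

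A different change by slide was tested directly over 318 genes. The male Control group of this fit is 1 section, with 320 gated cells and 21617 transcripts, so its own spread was not measured. The calls below rest on the spread of the other sections. Stfa3, a stefin that inhibits cysteine proteases, was at 236, 154 and 1758 CPM in Control and 9416, 17894, 569.5 and 614 CPM in PITX1+ sections, and its log2 change was -7.99 ± 0.72 (SE) on the male relative to the female slide, with adjusted p = 0.00833 by edgeR. Cstdc5, a related cystatin-domain gene, was at 420.4, 487 and 1249 and 12225, 20363, 786 and 577 CPM, with a difference of -6.33 ± 0.65 (SE) and adjusted p = 0.00909 by edgeR. Both rose strongly on the female slide and were lower than the single Control section on the male slide. Stfa3 and Cstdc5 belong to a family of closely related genes, and their values are uncertain where probes read more than 1 copy. Igfbp5, a binding protein of insulin-like growth factors, went the other way, at 2319, 2614 and 370.1 CPM in Control and 936, 932, 6292 and 3305 CPM in PITX1+ sections (difference 4.82 ± 0.72 (SE), adjusted p = 0.0496 by edgeR). Its call was lost with a gate of at least 8 transcripts (adjusted p = 0.07 by edgeR, range over 5 settings 5.79e-05 to 0.07 by edgeR or DESeq2), and those of Stfa3 and Cstdc5 held in all 5.

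Of the suprabasal and cornified genes read in the gated cells, 1 of 14 were higher and 7 lower on the female slide (median -1.51), 0 and 0 of 14 were so over both slides (median -1.50), and the median was -1.05 on the male slide. Krt77, a suprabasal keratin, stood at 76288, 78534 and 46352 CPM in Control and 4372, 936, 8705 and 34570.4 CPM in PITX1+ sections (female slide, log2 fold change -4.72 ± 0.70 (SE), adjusted p = 0.0066). Flg2, a filaggrin relative of the granular layer, stood at 34377, 45003 and 20771 CPM in Control and 770.2, 161, 4665 and 16361 CPM in PITX1+ sections (female slide, log2 fold change -6.29 ± 0.75 (SE), adjusted p = 0.00455). Krt1, the first keratin of the spinous layer, stood at 12972, 18771 and 33908 CPM in Control and 35709, 15942, 6726 and 22512 CPM in PITX1+ sections (female slide, log2 fold change 0.87 ± 0.40 (SE), adjusted p = 0.136). Krt77 and Flg2 were lower in every PITX1+ section than in every Control section, and Krt1 ranged across both conditions. Neither Krt77 nor Flg2 passed over both slides (adjusted p = 0.109 each by edgeR). The share of all genes separated in this way is not given here. Both genes were also lower in gated cells near follicle cells (log2 -2.37 and -2.44). The part of place and of suprabasal transcripts in the change was not tested.

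Of the genes that hold cells to the basement membrane, 6 of 9 were higher and 0 lower on the female slide (median 1.17), 0 and 0 of 9 were so over both slides (median 0.64), and the median was -0.38 on the male slide. The gate itself holds the hemidesmosome genes Col17a1 and Itgb4. Col17a1 gave 63.6 and 58.00% of the gate transcripts in the female PITX1+ sections, against 34.3 and 33.7% in the female Control sections. Itgb4 gave 18.7 and 17.2% against 9.25 and 6.39%. The part of the gate in the changes of this list was not tested. Itgb1, the shared integrin chain of basal cells, stood at 4657, 4619.6 and 4163 CPM in Control and 8895, 12606, 10590.1 and 6324 CPM in PITX1+ sections (female slide, log2 fold change 1.43 ± 0.29 (SE), adjusted p = 0.0143). Itga6, the partner of Itgb4 in hemidesmosomes, stood at 5071, 4798 and 6430.1 CPM in Control and 8744, 10509.5, 4976 and 6194 CPM in PITX1+ sections (female slide, log2 fold change 1.17 ± 0.24 (SE), adjusted p = 0.0166). Col7a1, the anchoring fibril collagen, stood at 9708, 11374 and 16284 CPM in Control and 14498, 10509.5, 11458 and 8946 CPM in PITX1+ sections (female slide, log2 fold change 0.43 ± 0.25 (SE), adjusted p = 0.2). Of the desmosomal cadherins, 2 of 4 were higher and 0 lower on the female slide (median 1.04), 0 and 0 of 4 were so over both slides (median 0.76), and the median was 0.60 on the male slide. Dsg3, the desmoglein of deep layers and of the oral epithelium, stood at 5077, 5155 and 8697 CPM in Control and 10677, 11953, 10197 and 9232 CPM in PITX1+ sections (female slide, log2 fold change 1.35 ± 0.23 (SE), adjusted p = 0.00914). Dsc2, a desmocollin, named after its values were seen as the other gene called, stood at 381, 227 and 416 CPM in Control and 1284, 2028, 2807 and 949 CPM in PITX1+ sections (female slide, log2 fold change 2.66 ± 0.39 (SE), adjusted p = 0.0066). Over both slides Dsc2 did not pass (log2 fold change 2.31 ± 0.50 (SE), adjusted p = 0.0681 by edgeR). Every PITX1+ section was above every Control section in Dsc2, and the share of all genes separated in this way is not given here. Buccal cells of the same gate held 10628 to 14519 CPM of Dsc2. Dsc3 stood at 10752, 10270.4 and 25952 and 8925, 7673, 19146 and 23516 CPM and Dsg2 at 1287, 949.9 and 1712 and 1676, 1537, 5939 and 4339.9 CPM.

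Among the basal keratin and the transcription factors of the epidermis, 2 of 9 were higher and 3 lower on the female slide (median -0.08), 1 and 0 of 9 were so over both slides (median -0.06), and the median was -0.50 on the male slide. Krt5 stood at 59034, 54486 and 91826 CPM in Control and 90151, 88268, 73453 and 82371 CPM in PITX1+ sections (female slide, log2 fold change 0.85 ± 0.20 (SE), adjusted p = 0.024). Rxra, the partner of retinoid and vitamin D receptors, stood at 6607, 10002 and 13832 CPM in Control and 2613, 2210.3, 9383 and 13044 CPM in PITX1+ sections (female slide, log2 fold change -1.60 ± 0.30 (SE), adjusted p = 0.0122). Trp63 stood at 19290.4, 18584 and 23963 CPM in Control and 19595, 19092, 26089 and 21266 CPM in PITX1+ sections (female slide, log2 fold change 0.23 ± 0.21 (SE), adjusted p = 0.394). Krt5 rose and Rxra fell on the female slide, and Trp63 did not pass the test. Of the cell cycle genes, 4 of 10 were higher and 0 lower on the female slide (median 1.00), 0 and 0 of 10 were so over both slides (median 0.79), and the median was 0.54 on the male slide. Top2a, the topoisomerase of dividing cells, stood at 4052, 2484 and 3331 CPM in Control and 6086, 7774, 6902 and 3987 CPM in PITX1+ sections (female slide, log2 fold change 1.31 ± 0.31 (SE), adjusted p = 0.0255). Hist1h1b, a linker histone, stood at 3869, 2062 and 6800.2 CPM in Control and 5210.2, 7643, 11621 and 7744 CPM in PITX1+ sections (female slide, log2 fold change 1.35 ± 0.38 (SE), adjusted p = 0.0373). Prc1, which bundles the microtubules of the dividing spindle, stood at 2614, 1957 and 1665 and 2937, 3451, 4054 and 2976 CPM. All 10 cycle genes had a positive fold change over both slides, and none passed there.

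In the list drawn up as oral keratinocyte genes, 1 of 8 were higher and 1 lower on the female slide (median -0.35), 0 and 0 of 9 were so over both slides (median -0.66), and the median was 0.53 on the male slide. The values below do not bear out the name for all of its genes, so its median is no measure of oral expression. Krt23, a keratin of differentiating epithelia, stood at 9924, 11342 and 3793 CPM in Control and 679.6, 538, 1031 and 3131 CPM in PITX1+ sections (female slide, log2 fold change -3.94 ± 0.27 (SE), adjusted p = 0.000738). In 6 buccal sections read by the same gate it was at 2449 to 5429.6 CPM. Crabp2, a retinoic acid binding protein, stood at 7323, 6666 and 5227 CPM in Control and 11591, 9146, 6034 and 7508 CPM in PITX1+ sections (female slide, log2 fold change 0.76 ± 0.22 (SE), adjusted p = 0.0389). Fcgbp stood at 71382, 48405 and 23500 and 47904, 50879, 2956 and 8767 CPM and Clca3a2, an anion channel regulator, at 22023, 14516 and 20539 and 12746, 7719, 2319 and 10422 CPM. Buccal cells of the same gate held 285 to 3401 CPM of Fcgbp and 0 to 20.6 CPM of Clca3a2. Clca3a2 was lower in all 6 buccal sections than in all 7 skin sections, Fcgbp lower than in 6 of the 7, and Krt23 lower than in the female Control sections. Krt4, a keratin of the oral and oesophageal lining, was named after its values were seen, and stood at 32.8, 114 and 0 CPM in Control and 166, 339, 353 and 74.4 CPM in PITX1+ sections, from 5, 14 and 0 and 22, 80, 26 and 12 transcripts. It was higher in PITX1+ sections within each slide and did not pass over both slides (log2 fold change 2.11 ± 0.88 (SE), adjusted p = 0.177) or on the female slide (log2 fold change 2.10 ± 0.65 (SE), adjusted p = 0.0506) by edgeR. Buccal cells held 18866 to 53885 CPM of Krt4, above all 7 skin sections. Pitx1 in buccal cells was at 791 to 1796 CPM, a range that holds PITX1+ section 3 and lies above the other skin sections. Tissue and slide cannot be told apart in these buccal values, which were not tested. The 7 buccal sections gave 7187 gated cells, of which 1 section with 11 was left out.

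In the IGF axis, 5 of 8 were higher and 1 lower on the female slide (median 0.79), 0 and 0 of 8 were so over both slides (median 0.70), and the median was 1.55 on the male slide. Igfbp2 stood at 3048, 3759 and 648 CPM in Control and 10133, 8037, 1600.0 and 3695 CPM in PITX1+ sections (female slide, log2 fold change 1.60 ± 0.25 (SE), adjusted p = 0.00784). Igf1r, the receptor, stood at 5793, 5472 and 2313 CPM in Control and 8910.2, 7681, 6414 and 4228 CPM in PITX1+ sections (female slide, log2 fold change 0.76 ± 0.21 (SE), adjusted p = 0.0373). Igfbp3 stood at 4946, 5496 and 3562 and 6569, 8591, 5695 and 3999 CPM. Igfbp2 and Igf1r were higher on both slides in PITX1+ sections. Of the Wnt genes, 1 of 12 were higher and 1 lower on the female slide (median -0.27), 0 and 0 of 12 were so over both slides (median -0.15), and the median was 0.11 on the male slide. Wnt4, a Wnt ligand, stood at 2575, 2013 and 2591 CPM in Control and 4002, 3370.5, 3376 and 3602 CPM in PITX1+ sections (female slide, log2 fold change 0.88 ± 0.24 (SE), adjusted p = 0.034). Wnt5a stood at 1149, 739 and 601 and 1404, 1105, 746 and 812 CPM and the coreceptor Lrp6 at 3067, 2972 and 2868 and 3149, 3726, 5085 and 3838 CPM.

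The Notch genes gave 1 of 4 higher and 1 lower on the female slide (median -0.10), 0 and 0 of 4 over both slides (median -0.33), and a median of -0.19 on the male slide. The ligand Jag1 stood at 4144, 3589 and 3469 CPM in Control and 6683, 5047, 4963 and 2505 CPM in PITX1+ sections (female slide, log2 fold change 0.80 ± 0.23 (SE), adjusted p = 0.041). The receptor Notch2 stood at 3448, 3418 and 2359 CPM in Control and 1827, 1677, 2753 and 2226 CPM in PITX1+ sections (female slide, log2 fold change -0.77 ± 0.23 (SE), adjusted p = 0.0443). Notch1 stood at 7284, 7769.8 and 4579.7 and 7241, 4861, 6753 and 5233 CPM. The BMP and TGF-beta genes gave 2 of 12 higher and 1 lower on the female slide (median 0.04), 0 and 0 of 12 over both slides (median 0.13), and a median of 0.42 on the male slide. Sostdc1, a BMP and Wnt antagonist, was at 2108, 2208 and 2961 and 2167, 2325, 7729 and 9287 CPM, Id3, a target of BMP signalling, at 1057, 1023 and 4163 and 1072, 1181, 9275 and 4606 CPM, and the receptor Bmpr2 at 3015, 2907 and 3007 and 2552, 2515, 4692 and 4228 CPM. Only the male PITX1+ sections were far above the Control range of Sostdc1. Sostdc1, Id3 and Bmpr2 did not pass over both slides (adjusted p = 0.315, 0.609 and 0.966 by edgeR).

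The ephrins and their receptors gave 0 of 8 higher and 2 lower on the female slide (median -0.26), 0 and 0 of 8 over both slides (median -0.20), and a median of 0.25 on the male slide. The ligand Efna3 stood at 11225, 12617 and 5782 CPM in Control and 5286, 2896, 1858 and 4427 CPM in PITX1+ sections (female slide, log2 fold change -1.37 ± 0.31 (SE), adjusted p = 0.0222). Efnb1 stood at 2798, 2501 and 2868 and 3156, 3836, 5573 and 4098 CPM and the receptor Ephb3 at 3455, 3377 and 2776 and 2401, 2447, 5532 and 3119 CPM. The EGF receptor family and its ligands gave 0 of 6 higher and 0 lower on the female slide (median 0.21), 0 and 0 of 6 over both slides (median 0.03), and a median of -0.09 on the male slide. Egfr stood at 5169, 4888 and 5597 and 4689, 4200.4, 7946 and 6175 CPM, Erbb2 at 4407, 4303 and 7355 and 3383, 2651, 4502 and 5598 CPM, and Erbb3 at 2581, 2655 and 3932 and 1956, 1952, 3675 and 4334 CPM.

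Cytokines and chemokines of keratinocytes gave 2 of 15 higher and 2 lower on the female slide (median -0.23), 0 and 1 of 15 over both slides (median -0.23), and a median of -0.28 on the male slide. Cxcl16, a chemokine tied to the membrane, stood at 3507, 3012 and 2035 CPM in Control and 5104, 4404, 881 and 887 CPM in PITX1+ sections (female slide, log2 fold change 0.74 ± 0.22 (SE), adjusted p = 0.0455). The male PITX1+ sections were lower in Cxcl16 than their Control section. Il1r1 stood at 2798, 2858 and 1804 and 1722, 1634, 1071 and 1172 CPM and Il1rn, its soluble antagonist, at 1543, 1169 and 2822 and 1631, 855, 3281 and 2424 CPM. Immediate early and stress genes gave 0 of 7 higher and 0 lower on the female slide (median -0.25), 0 and 0 of 8 over both slides (median -0.04), and a median of 0.04 on the male slide. Jun stood at 1090.3, 926 and 3192 and 1329, 1079.7, 5424 and 4637 CPM, the chaperone Dnajb1 at 669.9, 560.2 and 2359 and 393, 491, 4379.8 and 4328 CPM, and Arrdc4 at 1649, 1478 and 694 and 1223, 1236, 2210.2 and 1680.2 CPM. Jun and Dnajb1 followed the slide, with every male section above every female one.

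Genes of the upper and outer follicle that the rule did not use gave 5 of 10 higher and 0 lower on the female slide (median 0.63), 0 and 0 of 10 over both slides (median 0.24), and a median of 0.02 on the male slide. Gja1, the gap junction protein connexin 43, stood at 2851, 2606 and 8234 CPM in Control and 9401, 6589, 32191 and 14694 CPM in PITX1+ sections (female slide, log2 fold change 1.74 ± 0.24 (SE), adjusted p = 0.0066). Krt79, of the infundibulum and sebaceous duct, stood at 5517, 4165 and 11750 CPM in Control and 8510.0, 7423, 5898 and 13280.1 CPM in PITX1+ sections (female slide, log2 fold change 0.92 ± 0.23 (SE), adjusted p = 0.0291). Sebaceous genes gave 2 of 6 higher and 0 lower on the female slide (median 0.45), 1 and 0 of 6 over both slides (median 0.19), and a median of 0.19 on the male slide, with Scd2 as the gene called over both slides. Elovl6, a fatty acid elongase, stood at 1905, 1681 and 3284 and 982, 2879, 1627 and 4482 CPM. The 4 sebaceous markers summed to 4344 to 8188 CPM in the gated cells of Control and 6735 to 23578 CPM in those of PITX1+ sections, and their part in the rise of Scd2 was not tested.

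**Figure D4:**
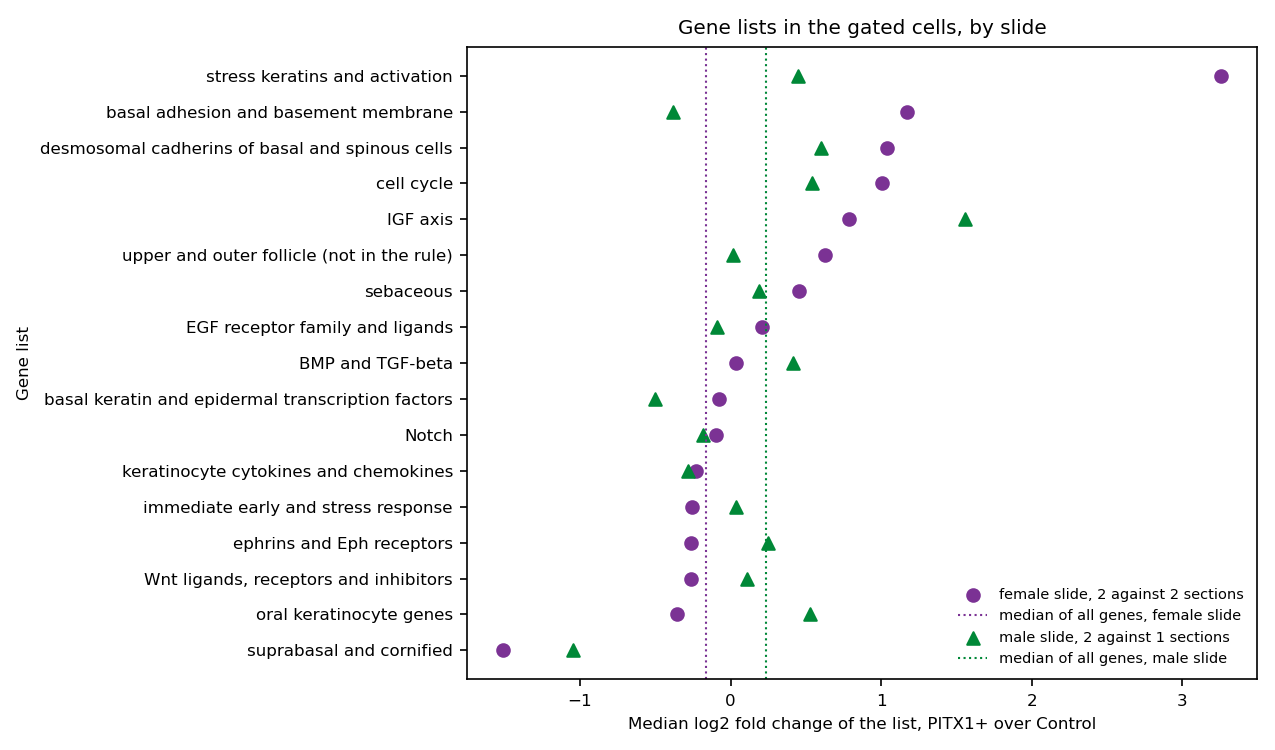
Median log2 fold change (PITX1+ over Control) of each gene list in the gated cells, circles for the female slide (2 against 2 sections) and triangles for the male slide (2 against 1), dotted lines for the median of all genes tested. The stress and activation list has the highest median on the female slide, 3.26, against 0.45 on the male slide.

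Set against the suprabasal keratinocytes of the same sections, 63 genes were higher and 69 lower in the gated cells, 42.9% of 308 tested. The 13536 suprabasal cells were chosen by Krt1, Krt77 and Lor, so part of the contrast is fixed by the choice, and these 3 genes and those of the rule were left out. With library size in place of TMM scaling the median log2 difference of all genes rose from -0.06 to 0.72, and the split was 123 higher and 33 lower. Ptn, pleiotrophin, a heparin-binding growth factor, was at 1749 to 4071 CPM in gated cells and 114 to 634 CPM in suprabasal cells (log2 fold change 2.03 ± 0.24 (SE), adjusted p = 0.000594). Lgr6, an R-spondin receptor of epidermal stem cells, was at 893, 1811 and 2267 CPM (lowest, median and highest of 7 sections) in gated cells and 86.8, 220.0 and 450.4 CPM in suprabasal cells (log2 fold change 1.97 ± 0.20 (SE), adjusted p = 0.000594). Thbs1, thrombospondin-1, was at 1047, 3146 and 5535 CPM (lowest, median and highest of 7 sections) in gated cells and 225, 360.3 and 755 CPM in suprabasal cells (log2 fold change 1.98 ± 0.24 (SE), adjusted p = 0.000594). All 3 were higher in the gated cells of 7 of 7 sections. Other genes with large rises were Igfbp4 (2.16), Lbh (2.03), Cntfr (2.02), the receptor of ciliary neurotrophic factor, and Tgfb3 (1.95), which did not pass in Control sections only (0.66).

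The gated cells held less of the cornified programme. Flg, profilaggrin, was at 1198, 2544 and 5133 CPM (lowest, median and highest of 7 sections) in gated cells and 7398, 30701 and 89152 CPM in suprabasal cells (log2 fold change -4.15 ± 0.74 (SE), adjusted p = 0.00244). Dsc1, the desmocollin of upper layers, was at 1871, 5970.5 and 15556 CPM (lowest, median and highest of 7 sections) in gated cells and 25250.3, 40524 and 55282 CPM in suprabasal cells (log2 fold change -3.39 ± 0.47 (SE), adjusted p = 0.00116). Flg2 (-3.77), Il1f6 (-3.68), an IL-36 cytokine, Krt23 (-3.57), Hrnr (-3.45), Cnfn (-3.43) and Krt78 (-3.15) were lower in 7 of 7 sections as well. Of the lists, 11 of 11 suprabasal and cornified genes tested were lower, 6 of 9 adhesion genes and 7 of 10 cell cycle genes were higher, 5 of 8 IGF genes were higher, and 6 of 8 immediate early genes and 5 of 6 EGF genes were lower. Top2a was higher in 7 of 7 sections (log2 fold change 1.10 ± 0.19, adjusted p = 0.00237 by edgeR), and Krt5 also (log2 fold change 0.94).

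Gated cells near hair follicle cells differed from those farther away in the same sections. Within 50 µm of a follicle cell, 29 genes were higher and 36 lower, 21.2% of 307 tested. With library size scaling the median of all genes moved from 0.04 to 0.35, and the split was 70 higher and 18 lower. The smaller side held 99 cells in Control section 3 and 109 in PITX1+ section 3. Sox9, the transcription factor of the outer root sheath, was at 7231, 9453 and 22141 CPM (lowest, median and highest of 7 sections) in the near cells and 875, 1851 and 2211 CPM in the far cells (log2 fold change 2.43 ± 0.30 (SE), adjusted p = 0.000589), higher near follicle cells in 7 of 7 sections. Ptch1, the Hedgehog receptor and target, was at 729.9, 4520.1 and 16002 CPM (lowest, median and highest of 7 sections) in the near cells and 286, 1461 and 1640.0 CPM in the far cells (log2 fold change 1.76 ± 0.38 (SE), adjusted p = 0.00786), also in 7 of 7. Lbh was at 3139, 7209.6 and 14033 CPM (lowest, median and highest of 7 sections) in the near cells and 799.7, 1645 and 2626 CPM in the far cells (log2 fold change 1.79 ± 0.25 (SE), adjusted p = 0.000966). Wfdc3 (2.74) and Col14a1 (1.95), a fibril-associated collagen, were higher in 6 of 7 sections, and Wif1 (2.01), a secreted Wnt inhibitor, and Timp3 (1.97), an inhibitor of matrix proteases, in 7 of 7. Some of these calls depended on the setting. Wfdc3 did not pass without Control section 1 (adjusted p = 0.0528), without Control section 2 (adjusted p = 0.0539) or in PITX1+ sections only (log2 0.85, adjusted p = 0.472). Wif1 did not pass without PITX1+ section 2, 3 or 4, in PITX1+ sections only or at 100 µm (log2 1.21 to 2.51 and adjusted p 0.00194 to 0.149 over 13 settings by edgeR or DESeq2). Timp3 did not pass in PITX1+ sections only, nor Ptch1 at 100 µm.

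Differentiation genes lay on the other side. Krt1 was at 1968, 5432 and 14489.9 CPM (lowest, median and highest of 7 sections) in the near cells and 14201, 32998 and 43658 CPM in the far cells (log2 fold change -2.48 ± 0.34 (SE), adjusted p = 0.000966). Mt4, the metallothionein of stratified epithelia, was at 0, 332 and 1549 CPM (lowest, median and highest of 7 sections) in the near cells and 912, 2699 and 6026 CPM in the far cells (log2 fold change -2.63 ± 0.43 (SE), adjusted p = 0.00133). Flg2 (-2.44), Krt77 (-2.37), Lor (-2.28), Hrnr (-2.18) and Flg (-1.95) were lower in 7 of 7 sections and Krt78 (-1.94) in 6 of 7. Krt78 did not pass without PITX1+ section 4, in PITX1+ sections only, at 100 µm or with library size scaling (adjusted p up to 0.0692 by edgeR), nor Flg at 100 µm. In all, 13 of 14 suprabasal and cornified genes were lower near follicle cells, none of 10 cell cycle genes and none of 4 desmosomal cadherins passed, and Itga6 was lower in 7 of 7 sections (log2 fold change -0.88 ± 0.22, adjusted p = 0.015 by edgeR). Pitx1 gave 0 transcripts near and 2 far in PITX1+ section 1 (345 near and 850 far cells), 5 and 8 in PITX1+ section 2 (728 and 1055 cells), 105 and 1 in PITX1+ section 3 (585 and 109 cells) and 57 and 12 in PITX1+ section 4 (592 and 704 cells), with 4 and 7, 2 and 4, and 0 and 1 in Control sections, and over all sections it did not pass (adjusted p = 0.0828 by edgeR). Transcripts of a neighbouring cell can fall inside a cell outline, and the part of that in these differences was not tested.

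**Figure D5:**
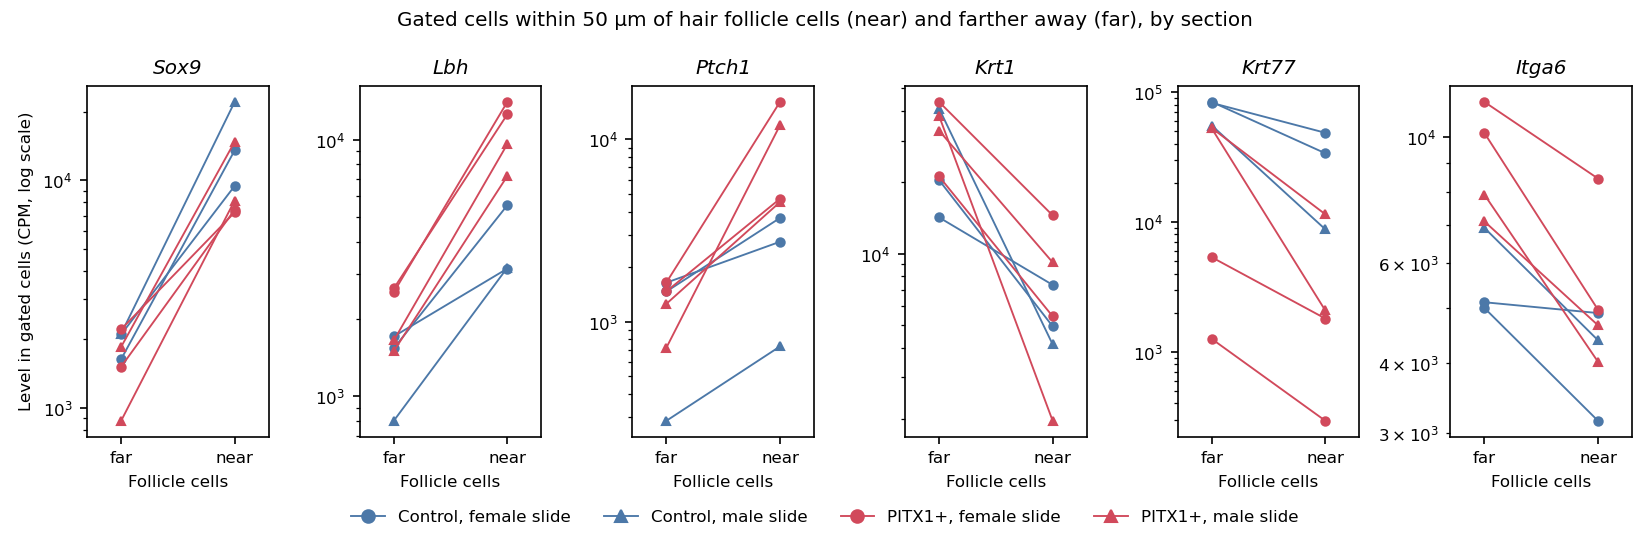
Level (CPM, log scale) of 6 genes in gated cells farther than 50 µm from hair follicle cells (far) and within 50 µm (near), 1 line per section, blue for Control and red for PITX1+, circles for the female and triangles for the male slide. Sox9, Lbh and Ptch1 rise and Krt1, Krt77 and Itga6 fall toward follicle cells in all 7 sections.

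Promoters of RefSeq (GRCm38.p6, 250 bases before to 50 after the start) were on hand for 4 of the 7 genes called over both slides. The letters TAATCC, the core that PITX proteins bind, on either strand, were in none of them, and were in 7.06% of all promoters. This says only that the letters are not in these windows.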

How the data were processed

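Xenium in situ transcripts on unwounded skin slides were analysed. Per the labels, the authors cut 5 µm sections and used the Xenium In Situ Gene Expression Kit. The deposited cells tables hold counts per cell, and the deposited transcripts give each transcript a quality score. Transcripts with a score of at least 20 were counted here per cell, and 98.1% to 98.6% of them lay in cells. The segmentation settings are not given in the sources used here. Sections were separated by chaining cells within 100 µm.

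Section sums (21617 to 236167 transcripts) were compared by the quasi-likelihood test of edgeR (version 4.0.16, R version 4.3.3). Low genes were dropped by filterByExpr, TMM factors were used, the slide was a covariate, and p-values were adjusted by Benjamini-Hochberg to a threshold of 0.05. DESeq2 (version 1.42.0) was an alternative. Cells were not replicates, and no cells were removed as doublets. The paired fits used the section as a block. On simulated data the comparison of conditions recovered 89.5% of 4-fold and 26.8% of 2-fold changes over 303 genes. The simulation gave all genes 1 common dispersion and no slide difference, and 192 of the 303 genes were changed. These settings differ from the real data, so the shares may overstate recovery there. Values with 1 number per section were compared by two-sided exact permutation, doubling the smaller tail, and counting absolute differences instead gave a smallest p of 0.0286 with no call after adjustment (Python 3.11.15).

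The cells and gene lists were chosen with earlier results of these data known. Genes were named by a rule, namely Pitx1, the gate genes, called genes whose sections did not overlap within a slide, the 3 members of each list with the most transcripts, and the 8 largest changes each way in the paired fits. Some genes that the rule names are not reported here, although the counts of called genes include them. The wounded slide was not analysed here.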

Additional observations from a re-analysis of the deposited data

Results flagged for a closer look

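Stfa3, Cstdc5 and Igfbp5 were flagged for a change between conditions that differed by slide (edgeR). The male Control group of that fit is 1 section, so its own spread was not measured. The log2 change on the male minus the female slide was -7.99 for Stfa3, -6.33 for Cstdc5 and 4.82 for Igfbp5. Among the 4 PITX1+ sections, PITX1+ section 3 lay apart from the others in the median distance from a gated cell to the nearest other gated cell, 15.95 µm against 11.2 to 11.8 µm. Chance puts about 1 in 20 such groups past the limit used, and 24 were examined.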

How the results depend on the processing

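The number of genes called between conditions, 7, depended on the processing more than any other count. It was 2 with library size in place of TMM scaling, 27 with a gate of at least 3 transcripts, 0 with a gate of at least 8, 11 without Krt15 in the gate, 14 with a gate of at least 10% of transcripts, 2 with at least 20 transcripts per cell, 12 with transcripts over the nucleus, 1 with transcripts of any quality, 38 without cells holding transcripts of other cell types, 11 within 30 µm of a suprabasal cell, 0 away from follicle cells, 0 without the slide as covariate, 101 on the female slide, 0 on the male slide and 66 with DESeq2. Leaving out 1 section at a time gave 0 to 54. Of alternatives added after the data were seen, gated cells with fewer than 2 suprabasal transcripts gave 31 and cells thinned to 50 transcripts gave 2. The 3 genes whose change differed by slide became 18 away from follicle cells and 15 with DESeq2. The 65 genes called near against far from follicle cells became 43 at 100 µm and 37 in PITX1+ sections only, and leaving out 1 section gave 40 to 63. The 132 genes called against suprabasal cells ranged from 98 to 161. Signs reversed for Lbh between conditions (-0.075 within 30 µm of a suprabasal cell), for Pitx1 (-0.39 without Control section 3, and -0.39 to 1.48 when 1 section was left out) and for the suprabasal share of neighbours (a difference of 0.73 percentage points with a gate of at least 8, and of -4.78 to 2.81 when 1 section was left out). The cause was not tested. Of 124 place and neighbour values under other settings, 121 kept their direction. The number of sections and the few transcripts per cell limit all comparisons.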
